A study of Mus musculus with 10 samples.

Results

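Serine, folate and thymidylate synthesis form a chain of reactions that feeds carbon into DNA building blocks. The rule for this set named 9 mouse genes: Phgdh, Psat1, Psph, Shmt1, Shmt2, Mthfd1, Mthfd1l, Mthfd2 and Tyms. Of these, 8 were found by gene name among the 6147 genes of the deposited table, and all 8 passed the filter on low values. Mthfd2 was not analysed here. RNA was taken from whole neocortex, the layered outer part of the forebrain, of wild-type CD1 mice, an outbred laboratory strain. There were 5 groups of 2 libraries, from embryos at E12.5, E14, E15.5 or E17 (days of gestation) and from newborns (P0). No transgene or treatment is named in the labels, so all groups share the same wild-type background. The study's design text calls the libraries of a stage biological duplicates, but the labels give no litter, sex or number of animals pooled. P-values therefore measure only the spread between these libraries.

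As background, Phgdh, Psat1 and Psph catalyse the successive steps that turn the glycolytic intermediate 3-phosphoglycerate into serine. Serine hydroxymethyltransferase (Shmt1 in the cytosol, Shmt2 in mitochondria) moves a carbon from serine to folate, leaving glycine. The Mthfd enzymes convert the folate-bound carbon between its oxidation states, and Tyms uses it to methylate dUMP to dTMP, the thymine nucleotide of DNA. In the developing brain dividing progenitors need dTMP and purines for replication, and radial glia and astrocytes are known for serine synthesis.

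Values are TPM, a length-corrected share of all transcripts in a library, so levels of different genes can be compared. All 8 genes were lower at birth than at E12.5. Tyms fell to 7.57% of its E12.5 level, Shmt1 to 18.3%, Psat1 to 21.5%, Phgdh to 31.2%, Mthfd1 to 33.9%, Shmt2 to 35.6%, Mthfd1l to 47.3% and Psph to 56.2%. On the log2(TPM + 1) scale, with a limma fit over all 10 libraries and p-values adjusted over all 6048 tested genes, each of the 8 falls was called. Called means a Benjamini-Hochberg adjusted p under 0.05. Calls were common at this distance: 51.0% of all tested genes were called lower, 27.1% higher and 78.2% in either direction. The split of 3087 lower and 1641 higher genes was 2283 and 2292 once TPM were rescaled by the median of ratios, so that the median gene shows hardly any change (-0.007 in place of -0.27). In the F test over the 5 stages 8 of 8 genes passed, as did 82.9% of all tested genes. The median change of the 8 genes was -1.55, against -0.27 for all tested genes. No P0 library of the 8 genes reached an E12.5 library of the same gene, and 58.4% of all tested genes were separated in this direction. These are bulk samples, so fewer cells of a type and less RNA per cell cannot be told apart.

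**Figure D1:**
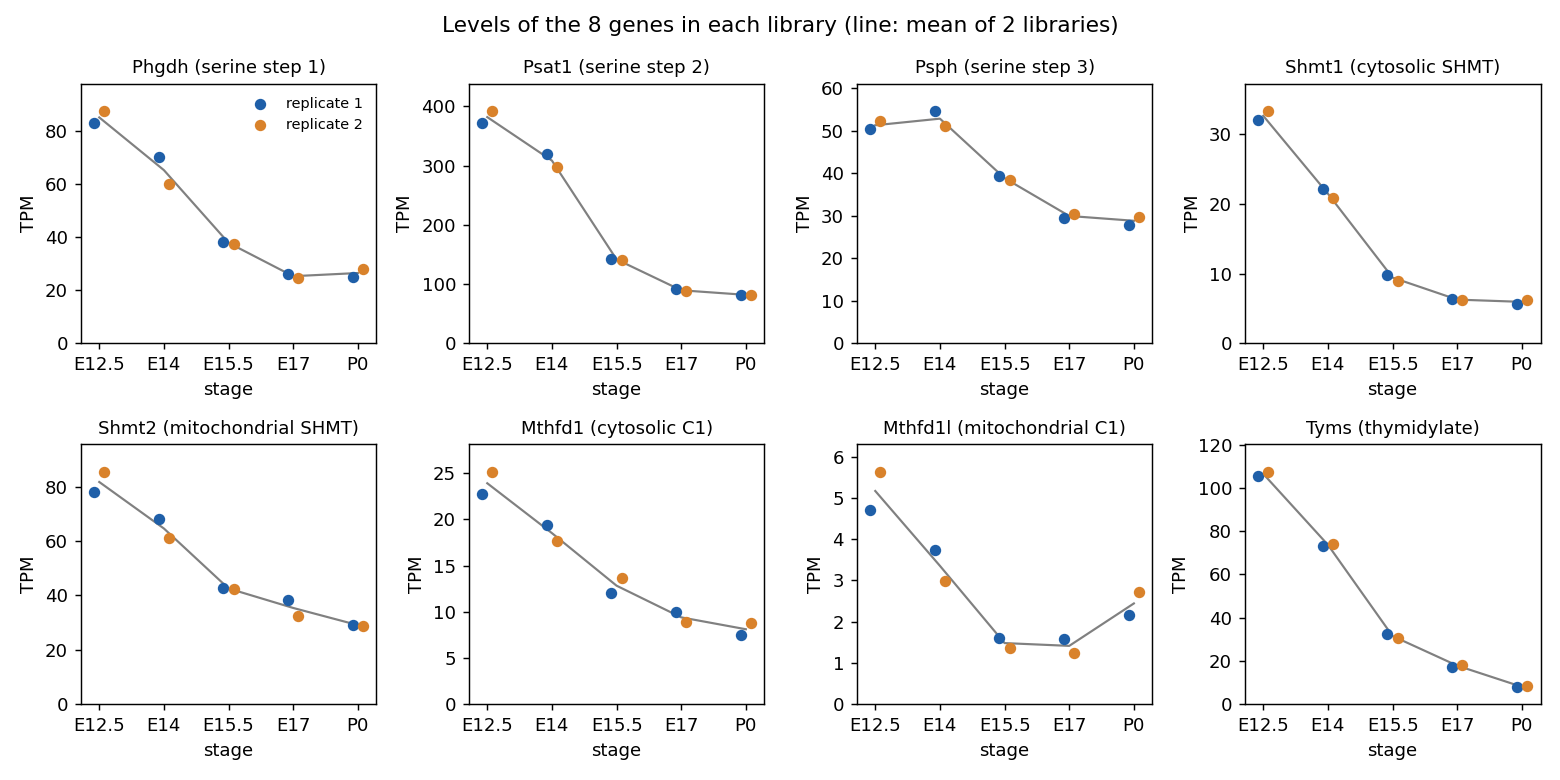
TPM (vertical axes, each starting at 0) of the 8 genes at the 5 stages, with 1 point for each library and a line through the mean of 2 libraries. Psat1 starts at 372 and 391 TPM and ends at 82.6 and 81.5 TPM, and Mthfd1l is the gene whose P0 points lie above its E17 points without overlap.

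Phgdh, phosphoglycerate dehydrogenase, commits carbon to serine. Its gene (ENSMUSG00000053398) spans 98313170 to 98339990 of chromosome 3 in GRCm38, on the reverse strand, and all gene positions here are in that build. Its level was 82.8 and 87.3 TPM at E12.5, 70.3 and 60.1 at E14, 38.3 and 37.4 at E15.5, 26.2 and 24.5 at E17, and 24.9 and 28.1 at P0. Libraries of neighbouring stages did not overlap up to E17, and those of E17 and P0 did. The change from E12.5 to P0 was -1.65 (SE 0.10, limma adjusted p 3.14e-08).

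Psat1, phosphoserine aminotransferase, had the highest level of the 8 genes at every stage. It spans 15904678 to 15947337 of chromosome 19, reverse strand (ENSMUSG00000024640). Its level was 372 and 391 TPM at E12.5, 320.0 and 297 at E14, 143 and 141 at E15.5, 91.7 and 87.9 at E17, and 82.6 and 81.5 at P0. Every stage was separated from the next, although the difference between E17 and P0 was small. The change over the whole span was -2.20 (SE 0.07, limma adjusted p 1.67e-10). Among tested genes its level stood at percentile 94.6 at E12.5 and 71.4 at P0.

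Psph, phosphoserine phosphatase, makes the last step to free serine and kept the largest share of its E12.5 level in TPM. The log2 change of Mthfd1l was smaller under quantile normalization, with a pseudocount of 10 TPM and without E12.5 replicate 2 or P0 replicate 1. Psph spans 129765558 to 129787449 of chromosome 5, reverse strand (ENSMUSG00000029446), and Cct6a overlaps it on the other strand. Its level was 50.3 and 52.3 TPM at E12.5, 54.5 and 51.2 at E14, 39.4 and 38.3 at E15.5, 29.5 and 30.4 at E17, and 27.9 and 29.8 at P0. The first 2 stages overlapped, as did the last 2. The change over the whole span was -0.81 (SE 0.08, limma adjusted p 3.33e-06), and median-of-ratios scaling reduced it to -0.54.

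The 3 serine enzymes did not keep their proportions. In a fit of each gene's log2 value minus that of Phgdh in the same library, Psat1 fell by 0.56 more than Phgdh (SE 0.13, limma adjusted p 6.48e-05). In the same fit Psph fell by 0.84 less (SE 0.13, adjusted p 1.73e-08). The noise of the reference gene enters every gene's value in fits of this kind, so their p-values may be too small. Of all other genes, 94.1% differed from Phgdh in that fit and 87.9% fell less or rose, so a difference as such was common. The TPM ratio of Psat1 to Psph was 7.40 and 7.49 at E12.5, 5.87 and 5.81 at E14, 3.62 and 3.68 at E15.5, 3.11 and 2.89 at E17, and 2.96 and 2.73 at P0. Phgdh was above Psph at E12.5, by a ratio of 1.64 and 1.67, and below it at P0, at 0.89 and 0.94.

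Shmt1 and Shmt2 encode the cytosolic and the mitochondrial form of one enzyme. Shmt1 (ENSMUSG00000020534) spans 60788104 to 60811718 of chromosome 11, reverse strand, and Smcr8 overlaps it on the other. Its level was 31.9 and 33.2 TPM at E12.5, 22.0 and 20.8 at E14, 9.86 and 8.98 at E15.5, 6.40 and 6.15 at E17, and 5.70 and 6.20 at P0. The 4 embryonic stages were each separated from the next, and E17 and P0 overlapped. Its change from E12.5 to P0 was -2.27 (SE 0.10, limma adjusted p 2.43e-09), or -1.42 with a pseudocount of 10 TPM. Shmt2 (ENSMUSG00000025403), spanning 127517123 to 127522444 of chromosome 10 on the reverse strand, with Ndufa4l2 overlapping on the other, stood at 78.1 and 85.3 TPM at E12.5, 68.2 and 60.9 at E14, 42.7 and 42.3 at E15.5, 38.2 and 32.6 at E17, and 29.3 and 28.9 at P0. Libraries of neighbouring stages did not overlap at any step. Its change over the span was -1.46 (SE 0.10, limma adjusted p 7.76e-08).

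Shmt2 was the more abundant form in all 10 libraries, and its lead widened. The TPM ratio of Shmt2 to Shmt1 was 2.45 and 2.57 at E12.5, 3.09 and 2.93 at E14, 4.34 and 4.71 at E15.5, 5.96 and 5.30 at E17, and 5.13 and 4.66 at P0. Tested within each library, Shmt2 fell by 0.81 less than Shmt1 from E12.5 to P0 (SE 0.11, limma adjusted p 3.91e-07). With a pseudocount of 10 TPM, which damps genes at low levels, this difference was 0.19 and still called (adjusted p 0.0381). In the main fit 97.8% of all other genes differed from Shmt1 and 94.2% fell less or rose.

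Mthfd1 is a cytosolic enzyme with 3 activities on folate-bound carbon, and Mthfd1l releases formate from mitochondria. Mthfd1 (ENSMUSG00000021048) spans 76255298 to 76319803 of chromosome 12, forward strand. Its level was 22.7 and 25.1 TPM at E12.5, 19.4 and 17.6 at E14, 11.99 and 13.7 at E15.5, 9.94 and 8.86 at E17, and 7.46 and 8.78 at P0. Each stage lay below the one before, with a narrow gap between E17 and P0. The change over the span was -1.45 (SE 0.12, limma adjusted p 4.79e-07), or -0.90 with a pseudocount of 10 TPM.

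Mthfd1l took another course and was the lowest of the 8 genes in level. It spans 3973118 to 4167081 of chromosome 10, forward strand (ENSMUSG00000040675). Its level was 4.71 and 5.62 TPM at E12.5, 3.73 and 2.98 at E14, 1.60 and 1.36 at E15.5, 1.58 and 1.25 at E17, and 2.16 and 2.72 at P0. It was lowest at E15.5 and E17, whose libraries overlapped, and both P0 libraries lay above both E17 libraries. From E12.5 to P0 it changed by -0.84 (SE 0.14, limma adjusted p 0.000189). Quantile normalization, which forces the same distribution on every library, reduced this to -0.18 and ended the call (adjusted p 0.196). Its mean was too low for it to be tested with a minimum of 5 TPM. Relative to Mthfd1 in the same library it fell less, by 0.61 (SE 0.17, limma adjusted p 0.000457). The noise of Mthfd1 enters every gene's value in that fit, so this p-value may be too small. There 90.9% of other genes differed and 83.6% fell less or rose. The ratio of Mthfd1 to Mthfd1l was 4.82 and 4.47 at E12.5, 7.49 and 10.05 at E15.5, and 3.45 and 3.23 at P0.

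Tyms, thymidylate synthase, spans 30058202 to 30073617 of chromosome 5, reverse strand (ENSMUSG00000025747). The authors' table put it among the translation-associated genes and the other 7 among other genes. Its level was 106 and 107 TPM at E12.5, 73.3 and 74.0 at E14, 32.3 and 30.7 at E15.5, 17.4 and 18.2 at E17, and 7.86 and 8.25 at P0. Every stage was lower than the one before, and the 2 libraries of a stage were close. Its change from E12.5 to P0 was -3.57 (SE 0.08, limma adjusted p 2.77e-11). It went from percentile 75.8 of tested genes at E12.5 to 11.7 at P0.

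All 7 other genes fell by less than Tyms when each was tested against it within the library, by between 1.30 (Shmt1) and 2.76 (Psph) on the log2 scale. The limma adjusted p of these 7 differences lay between 4.41e-12 and 8.93e-08. So did nearly every gene: 99.0% of other genes differed from Tyms and 98.3% fell less or rose. With a pseudocount of 10 TPM the difference of Psat1 dropped from 1.36 to 0.60 and that of Phgdh was 1.31, both still called. The TPM ratio of Phgdh to Tyms was 0.78 and 0.81 at E12.5, 1.19 and 1.22 at E15.5, and 3.17 and 3.41 at P0.

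**Figure D2:**
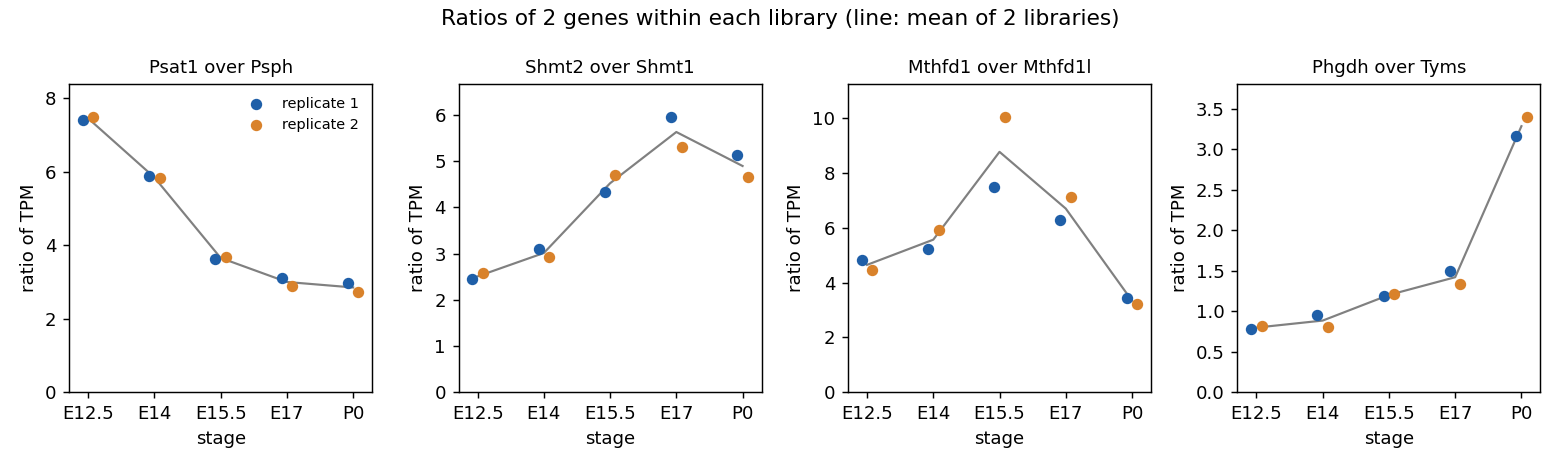
Ratios of TPM of 2 genes in the same library (vertical axes starting at 0) at the 5 stages, with 1 point for each library and a line through the mean. Psat1 over Psph falls from 7.40 and 7.49 to 2.96 and 2.73, Shmt2 over Shmt1 rises up to E17, Mthfd1 over Mthfd1l peaks at E15.5, and Phgdh over Tyms reaches 3.17 and 3.41 at P0.

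The order of levels changed with these falls. At E12.5 it ran Psat1, Tyms, Phgdh, Shmt2, Psph, Shmt1, Mthfd1 and Mthfd1l, and the libraries of Phgdh and Shmt2 overlapped. At P0 it ran Psat1, Shmt2, Psph, Phgdh, Mthfd1, Tyms, Shmt1 and Mthfd1l. There the libraries of Shmt2 and Psph overlapped, as did those of Psph and Phgdh and those of Mthfd1 and Tyms.

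Step by step, the interval from E14 to E15.5 was the one in which all 8 genes were called lower. There 33.3% of all tested genes were called lower and 51.7% in either direction. In all 8 the libraries of the 2 stages did not overlap, which held in the same direction for 56.1% of all tested genes. Over all genes 2015 were called lower and 1113 higher, or 1555 and 1576 under median-of-ratios scaling. The median change of the 8 genes was -0.79, against -0.13 for all tested genes, from -0.43 in Psph to -1.20 in Tyms. Shmt1 changed by -1.11 (SE 0.10, limma adjusted p 5.49e-06) and Psat1 by -1.11 (SE 0.07, adjusted p 3.97e-07). Mthfd1, at -0.50 (SE 0.12, adjusted p 0.00507), lost its call without E14 replicate 1 (adjusted p 0.0548) and without E15.5 replicate 1 (0.065). This step gave each gene its most negative change of the 4 steps. That order held under every alternative with all stages for Phgdh, Psat1, Shmt1, Shmt2 and Tyms (19 each), and under 17 of 19 for Psph, 16 of 19 for Mthfd1 and 17 of 18 for Mthfd1l.

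Markers of other cells moved at the same step. The 3 erythroid genes in the table, of 10 listed, summed to 1975 and 1880 TPM at E14 and to 9.26 and 9.84 TPM at E15.5. Nearly all of the E14 sum was the globin Hbb-y, at 1951 and 1863 TPM, then 8.15 and 8.79 at E15.5. Hbb-bh1 went from 21.8 and 14.7 TPM to 0.23 and 0.33. Slc4a1, which is not a globin, went from 2.44 and 2.17 TPM to 0.88 and 0.72. The sum therefore follows 1 globin rather than a count of red cells. The 5 meningeal genes, of 6 listed, went from 111 and 106 TPM to 3.03 and 2.80. The 2 choroid plexus genes, of 6 listed, rose from 452 and 303 TPM at E12.5 to 1405 and 1517 TPM at E14, and were at 3.46 and 4.25 at E15.5. With Cdh5 and C1qb, the vascular and microglial genes in the table, these 12 genes held between 0.497% and 0.499% of all TPM at E12.5, 0.351% and 0.352% at E14, and at most 0.00301% in any library from E15.5 on. Most of the E12.5 sum was Hbb-y, at 4268 and 4429 TPM. C1qb was at 8.93 and 7.21 TPM at E14, 4.93 and 4.66 at E15.5, and 7.81 and 7.07 at P0. Its change from E12.5 to P0 was not called (limma adjusted p 0.437). From E15.5 to E17 Cdh5 rose from 1.18 and 1.34 TPM to 3.30 and 2.08, and the meningeal sum reached 6.63 and 4.57. Hbb-bh1, an embryonic globin, was listed at 0 in both P0 libraries. Of the neuron list 9 of 10 genes were in the table, and their sum rose from 2866 and 2896 TPM at E12.5 to 11131 and 12142 TPM at P0. The part of these cells in the falls was not tested.

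From E12.5 to E14, Shmt1 (-0.58), Tyms (-0.53), Phgdh (-0.38) and Psat1 (-0.31) were called lower, 4 of 8. Of all tested genes 4.78% were called lower, 3.95% higher and 8.73% in either direction. The 289 lower and 239 higher genes became 303 and 432 under median-of-ratios scaling. Adjusted p in limma was 0.00685, 0.00473, 0.0374 and 0.023. Mthfd1l (-0.50), Mthfd1 (-0.35) and Shmt2 (-0.33) were not called, with adjusted p of 0.0504, 0.0947 and 0.0582, although their libraries did not overlap, as those of 45.4% of all tested genes in this direction. Psph was at 0.04. The count of 4 moved with single libraries, to 0 when E12.5 replicate 1 or 2 or E14 replicate 1 or 2 was left out and to 2 when E15.5 replicate 1 or 2 was. It was 7 without E17 replicate 1 or 2.

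From E15.5 to E17, 6 of 8 genes were called lower. Of all tested genes 10.6% were called lower, 14.4% higher and 25.0% in either direction, and 29.7% had later libraries wholly below the earlier ones, as 7 of the 8 genes had. Tyms changed by -0.79 (SE 0.08, limma adjusted p 0.00022), Psat1 by -0.65, Phgdh by -0.56, Shmt1 by -0.52, Mthfd1 by -0.41 and Psph by -0.36. Shmt2 at -0.26 (adjusted p 0.0728) and Mthfd1l at -0.04 (adjusted p 0.854) were not called. Without E15.5 replicate 1 the count was 3, since Psph, Shmt1 and Mthfd1 lost their calls. Mthfd1 and Psph also lost theirs without E15.5 replicate 2 (adjusted p 0.238 and 0.075), and Mthfd1 when 1 library of E12.5 or E14 was left out (0.0504 to 0.0527). Without E17 replicate 1 the count was 7, with Shmt2 at -0.37 (adjusted p 0.00621), where the remaining E17 library is assumed to vary like those of the other stages.

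From E17 to P0, 2 of 8 genes were called lower, Tyms and Shmt2, and Mthfd1l was called higher. Tyms changed by -1.06 (SE 0.08, limma adjusted p 9.97e-06) and kept its call under each of 20 alternatives. Mthfd1l rose by 0.51 (SE 0.14, adjusted p 0.0149), where 12.9% of all tested genes were called higher and 28.8% lower, but its call was lost under 4 of 19 alternatives. These were P0 replicate 2 left out (0.39, adjusted p 0.111), a pseudocount of 10 TPM (0.12, adjusted p 0.0518), array weights (adjusted p 0.171) and only the 4 libraries of the pair (adjusted p 0.0708). The call of Shmt2, at -0.27 (adjusted p 0.0466), was lost under 17 of 20 alternatives, among them each of those that left out 1 library except E17 replicate 2. The other 5 genes lay between -0.19 (Mthfd1) and 0.06 (Phgdh) and were not called, while 41.7% of tested genes were. Psat1, Shmt2, Mthfd1 and Tyms, 4 of 8, had P0 libraries wholly below those of E17, as 39.9% of all tested genes did. Over all genes 1744 were called lower and 781 higher, or 1369 and 1292 under median-of-ratios scaling. The 95% interval for Phgdh ran from -0.16 to 0.28, that for Psat1 from -0.28 to 0.03 and that for Psph from -0.24 to 0.13. The sign of Shmt1 and Psph at this step turned under both alternative scalings and that of Mthfd1 under one of them. Calls were counted, not set against one another, so a difference between genes at this step was not tested.

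**Figure D3:**
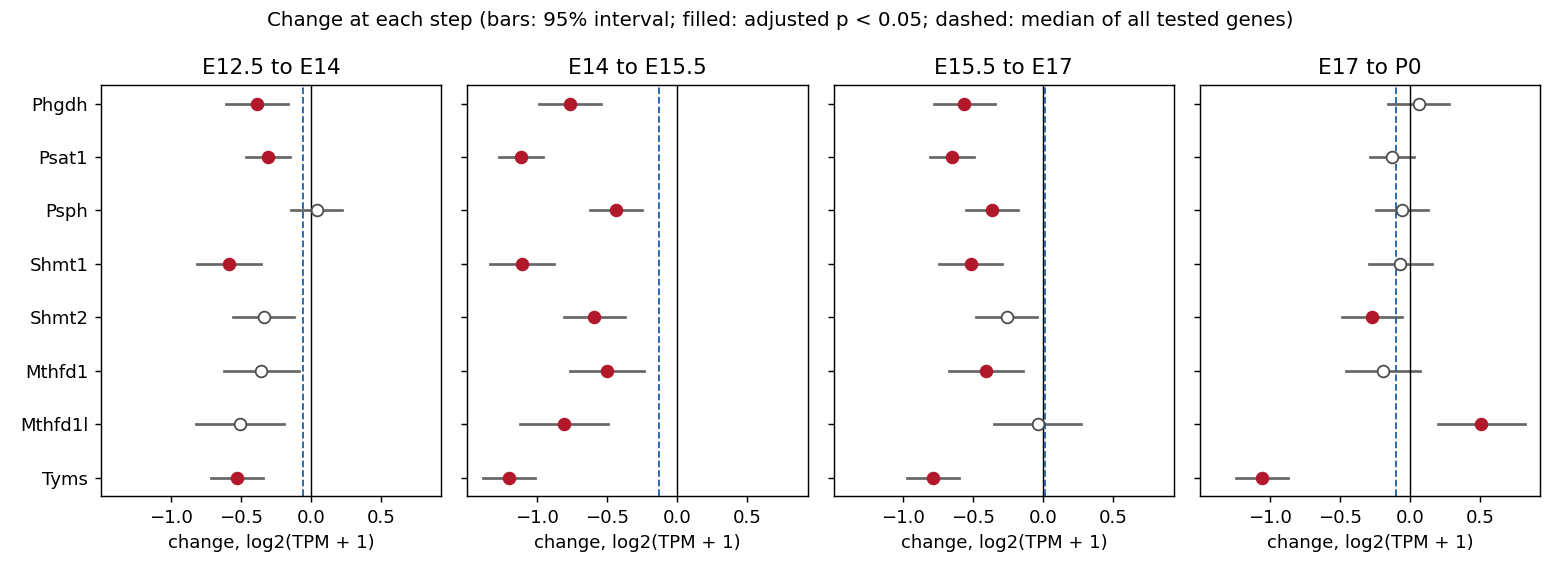
Change of each of the 8 genes on the log2(TPM + 1) scale (horizontal axes) at the 4 steps between neighbouring stages. Points are estimates, bars are 95% intervals, filled points are called, and the dashed line is the median of all tested genes. All 8 points lie left of 0 from E14 to E15.5, and from E17 to P0 Tyms stands at -1.06 and Mthfd1l at 0.51.

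The stretch before the start site was read for genes of this set because they fell together. RefSeq windows (GRCm38.p6) of 300 bases, 250 before to 50 after the start, were matched for all 8 genes, with 9 windows in all because Psat1 has 2. Searched on both strands were CCAAT, the word bound by the factor NF-Y, the E-box word CACGTG bound by Myc and related factors, TGATGNAA, part of the element bound by ATF4, and the E2F-type words TTTCGCGC, TTTGGCGC, TTTCCCGC and TTTGCCGC. CCAAT was in windows of Phgdh, Psat1, Psph, Shmt1 and Mthfd1, 5 of 9 windows, against 37.4% of all 32851 windows and 37.0% of the 6247 windows of genes measured here. CACGTG was in the window of Tyms alone, against 7.15% of all windows and 10.3% of those of measured genes. TGATGNAA (3.97% of all windows, 2.08% for measured genes) and the 4 E2F-type words (2.26% and 4.31% together) were in none of the 9. This says only that these letters are not in these windows. No match overlapped another. The last 120 bases before the start are printed for Psat1, the most abundant member, for the pair Shmt1 and Shmt2, and for Tyms, the one with the largest fall. All read 5′ to 3′ along the gene's own strand (reverse in each case), with matches to CCAAT, on this strand or as its complement where it lies on the opposite one, and to the E-box word in capitals.
Psat1 at chr19:15925060-15925179: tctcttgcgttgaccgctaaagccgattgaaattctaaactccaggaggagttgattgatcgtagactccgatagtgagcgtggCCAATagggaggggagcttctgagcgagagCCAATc
Shmt1 at chr11:60811266-60811385: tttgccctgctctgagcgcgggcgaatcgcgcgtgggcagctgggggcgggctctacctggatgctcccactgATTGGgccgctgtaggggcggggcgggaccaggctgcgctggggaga
Shmt2 at chr10:127522445-127522564: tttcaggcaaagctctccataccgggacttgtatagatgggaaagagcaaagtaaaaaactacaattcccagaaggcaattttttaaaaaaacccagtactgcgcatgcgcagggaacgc
Tyms at chr5:30073626-30073745: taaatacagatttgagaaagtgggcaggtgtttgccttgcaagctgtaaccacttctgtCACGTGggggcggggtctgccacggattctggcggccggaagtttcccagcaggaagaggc

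None of these stretches overlaps an exon in GENCODE M21. Of the windows not printed, the last 120 bases before the start lay wholly in GENCODE exons for Psph and Mthfd1. For Phgdh 21 of those 120 bases did. The CCAAT words counted for these genes may therefore lie in transcribed sequence. The first 20 transcribed bases lay in a GENCODE transcript of the gene for 6 of the 9 windows, but not for Tyms, Mthfd1 and Mthfd1l. The Psat1 and Shmt1 stretches lie within the gene spans given above. The CCAAT words of Psat1 begin 36 and 6 bases before the start (another lies 23 bases after it, outside the stretch shown), the ATTGG of Shmt1 47 bases before it and the CACGTG of Tyms 61 bases before it. The matches are a description of sequence, and no binding was measured.

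Genes around the set were described by lists from E12.5 to P0. Over this span 51.0% of all tested genes were called lower and 27.1% higher. Thymidine and deoxynucleotide supply fell with Tyms in most members: of 10 tested genes of 12 listed, 8 were called lower and 2 higher, with a median of -1.30. Tk1, the salvage kinase for thymidine, had the largest fall, from 107 and 112 TPM to 3.70 and 4.58 (-4.43, limma adjusted p 1.76e-10). Rrm2, a subunit of ribonucleotide reductase, was at 244 and 261 TPM and then at 28.7 and 31.3. Rrm2b, its form outside S phase, had the largest rise (0.39, adjusted p 0.0121), from 24.5 and 21.6 to 26.9 and 34.5 TPM. The count of 2 higher genes was 1 without E12.5 replicate 1, P0 replicate 1 or P0 replicate 2 and 0 without E12.5 replicate 2.

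Folate enzymes went both ways. Only 5 of 15 listed genes were in the table, and 3 were called lower and 2 higher. Among all tested genes 51.0% were called lower and 27.1% higher, so these few genes do not set the list apart. Mtr, which passes a folate-bound methyl group to homocysteine, fell from 7.55 and 7.47 TPM to 1.27 and 1.77 (-1.76, SE 0.16, limma adjusted p 1.3e-06). Aldh1l1 and Aldh1l2, which oxidise the folate-bound carbon to CO2 in cytosol and mitochondria, were higher. Aldh1l1, also used as an astrocyte marker, was at 0.19 and 0.32 TPM at E12.5, 5.45 and 6.58 at E15.5, and 12.9 and 14.6 at P0 (3.55, SE 0.12, adjusted p 2.58e-10). Aldh1l2 went from 5.30 and 5.39 TPM to 18.7 and 21.8 (1.74, SE 0.13, adjusted p 1.77e-07).

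Of 13 tested genes that carry or use serine and glycine, of 17 listed, 8 were called lower and 4 higher, with a median of -0.90. Among all tested genes 51.0% were called lower and 27.1% higher, so these counts are not far from the general rate. Slc1a5, a transporter of neutral amino acids, had the largest fall, from 14.8 and 16.2 TPM to 1.48 and 1.08 (-2.86, limma adjusted p 4.81e-09). Gldc, of the glycine cleavage system, went from 15.2 and 16.9 TPM to 2.40 and 2.70. Cbs, which condenses serine with homocysteine, had the largest rise (1.31, adjusted p 1.97e-06), from 3.16 and 2.94 TPM to 8.13 and 10.08. Srr, the racemase that makes D-serine, rose by 0.85 (adjusted p 2.6e-06), from 52.7 and 53.5 TPM to 89.5 and 104.6.

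The other lists are likewise given against the 51.0% of all tested genes called lower and 27.1% called higher over the same span. Purine synthesis, which consumes folate-bound carbon, had 9 genes called lower and 2 higher of 12 tested (median -0.81). Paics was lowest in change (-1.64) and Impdh1 highest (1.26). The methionine cycle had 4 called lower and 0 higher of 7 (median -0.62), with Dnmt1 at -1.37, but 2 of its genes were called higher under median-of-ratios scaling. Pyrimidine synthesis had 2 called lower and 1 higher of 5, from Cad (-1.94) to Cmpk1 (0.56), and 3 called higher under either alternative scaling. Of the genes linked to ATF4, a factor known to induce the serine enzymes, 5 of 13 were in the table. Among them 3 were called lower and 1 higher, or 1 lower and 1 higher under median-of-ratios scaling. The gene called higher was Asns, asparagine synthetase, at 13.8 and 14.01 TPM at E12.5 and 36.5 and 37.3 at P0 (1.35, SE 0.10, adjusted p 1.72e-07), while Aldh18a1 fell by 0.86.

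Replication and mitosis genes, listed for comparison, were all called lower, 19 of 19 tested, with a median of -2.59, from Rfc2 (-1.08) to Top2a (-4.30). Tyms, at -3.57, lay within that range, as did Shmt1, Psat1, Phgdh, Shmt2 and Mthfd1, and Psph and Mthfd1l lay outside it. Of 12 tested radial glia and astrocyte genes, 7 were called lower and 4 higher, with a median of -1.45, from Hmga2 (-7.19) to Fabp7 (0.94). None of these lists was tested against the set.

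**Figure D4:**
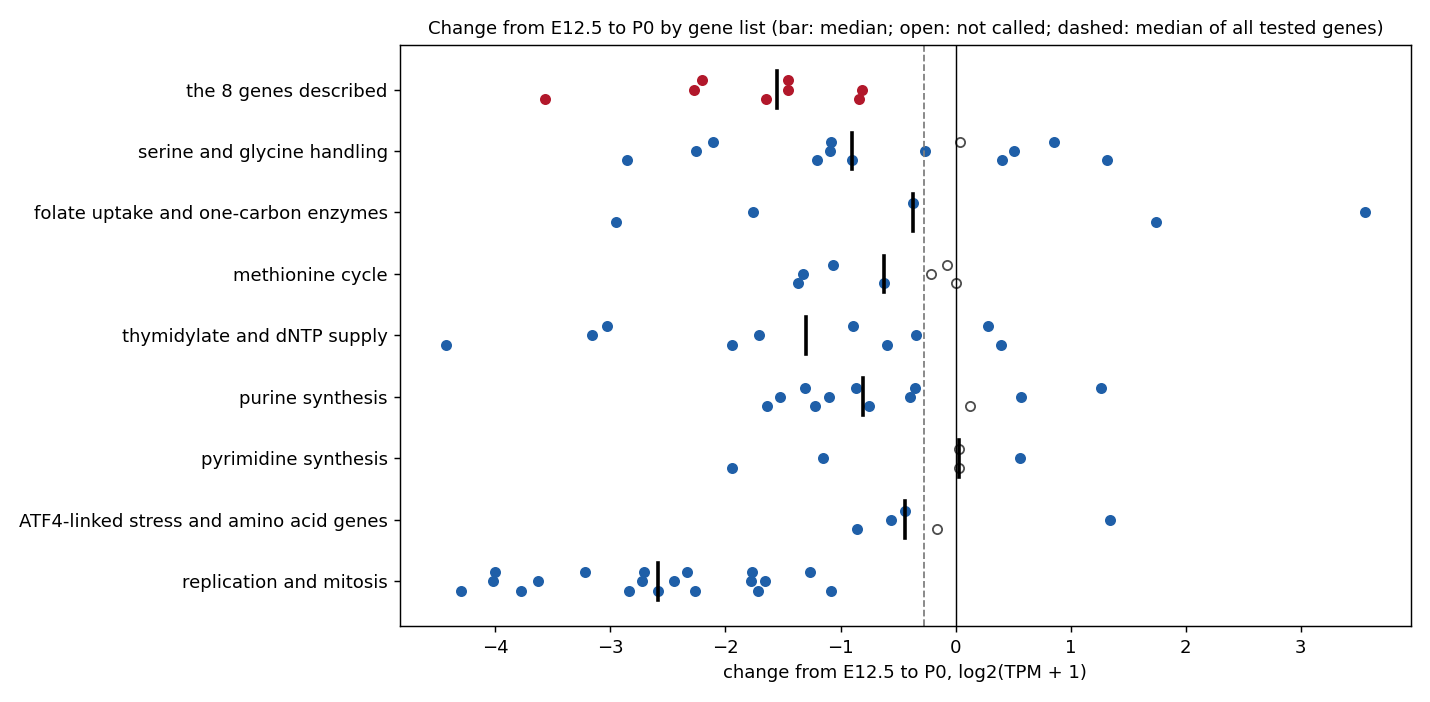
Change from E12.5 to P0 on the log2(TPM + 1) scale (horizontal axis) for the 8 genes and for 8 lists (rows), with 1 point for each tested gene, open where it was not called, a bar at each median and a dashed line at the median of all tested genes. The 8 genes have a median of -1.55, the replication and mitosis genes one of -2.59, and Aldh1l1 is the point at 3.55.

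The genes whose course was most like that of each member were found by Pearson's r of log2(TPM + 1) over the 10 libraries, in a pool of 5430 genes averaging 10 TPM or more. These describe shared change over 5 stages with the same libraries and carry no test. For Tyms they were Kif11, Tpx2 and Cdca8 (r of 0.999 each). For Shmt2 they were Pola2 (0.999), Myg1 and Srrt. Chaf1b (0.998), Phf10 and Cse1l were nearest to Shmt1, and Hadh (0.999), Hspa14 and Wbscr22 to Psat1. Phgdh was nearest to Rpa1 (0.9965), Hspa14 and Ltv1, and Mthfd1 to Ssrp1 (0.997), Eftud2 and Hnrnpl. Psph was nearest to Oat (0.991), Gtf2b and U2af1. Mthfd1l was nearest to Prps2 (0.9825), Prmt5 and Ppp2r5d. Between members r ran from 0.668 for Mthfd1l with Tyms to 0.994 for Phgdh with Shmt1.

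Summed over the table, its genes took up 68.9% to 71.7% of a library's TPM. TPM keep no read depth, so the number of reads behind a value is unknown. Between the 2 libraries of a stage, the log2 difference had an SD over genes of 0.285 at E17, against 0.088 to 0.176 elsewhere.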

How the data were processed

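Per the labels, frozen neocortex was pulverised in detergent buffer, the lysate was cleared by centrifugation, and RNA extracted with TRIzol LS went into TruSeq Stranded mRNA libraries. The submitters' processing notes name STAR, Subread and GRCm38.p5, without roles. The deposited table gives TPM by its headers, 1 column for each library, and 0 columns lacked a sample. Which gene lengths went into the TPM, and how the rows were chosen, is not stated in the labels. Counting on the wrong gene could affect Phgdh and Tyms, with 1 named pseudogene each, members overlapped by genes on the other strand, since use of strand in counting is not given, and Mthfd1l, which 2 genes overlap on its own strand.

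Genes with a mean under 1 TPM (99) were left out, and log2(TPM + 1) of 6048 genes was fitted with limma 3.58.1 in R 4.3.3: 1 mean per stage, 5 residual degrees of freedom, a variance trend, Benjamini-Hochberg adjustment over all genes and a threshold of 0.05. These changes understate those of low genes. Differences between members were tested in the same model on log2 values minus a reference gene (Tyms, Phgdh, Shmt1 or Mthfd1). The reference gene's noise is then shared by all genes, which makes their variances look alike, so these p-values may be too small. The median SE was 0.107. The scripts were tested on simulated data, with a limit set on false calls only in the fit without a reference gene. Positions are from GENCODE M21 and promoters from RefSeq.

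Members, lists and tests were chosen with earlier results of these data known. Named were all members, the largest called rise and fall of each list, genes whose role bears on a member, and the 3 genes most like each member. One gene that the rule names is not reported here. Tried in turn were a pseudocount of 0.1 or 10 TPM, no filter, a minimum of 5 TPM, 2 scalings, no trend, array weights, a replicate block, only the 4 libraries of a pair, and leaving out each library.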

Additional observations from a re-analysis of the deposited data

How the results depend on the processing

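From E12.5 to P0 and from E14 to E15.5 the number of the 8 genes called was 7 or 8 under each of 20 alternatives, and the within-library comparisons of members kept all their calls under each of 14. Those within-library comparisons were not run with either scaling, array weights, a changed filter or only 4 libraries. The other steps depended on the settings. From E12.5 to E14 the count of 4 became 7 with a pseudocount of 10 TPM, with array weights and with only the 4 libraries of the pair, and ran from 0 to 7 when single libraries were left out. From E15.5 to E17 the count of 6 became 3 with array weights and 2 with only 4 libraries, and ran from 3 to 7 without single libraries. From E17 to P0 the count of 3 became 1 with a pseudocount of 10 TPM, with array weights and with only 4 libraries, and ran from 1 to 3 without single libraries. Small changes turned sign: Psph from E12.5 to E14 without single libraries (-0.0037 to 0.0869), Mthfd1l from E15.5 to E17 (-0.141 to 0.058) and Phgdh from E17 to P0 (-0.0213 to 0.147). From E17 to P0, quantile normalization gave 0.10 for Psph, 0.23 for Shmt1 and 0.11 for Mthfd1, and median-of-ratios scaling 0.0544 for Psph and 0.0299 for Shmt1. The cause was not tested. Counts over all genes moved as well: from E12.5 to E14 between 9 and 1629 were called lower (289 in the main analysis) and between 56 and 850 higher (239), from E15.5 to E17 between 28 and 1056 lower (643) and 92 and 2118 higher (871), and from E17 to P0 between 830 and 2716 lower (1744) and 275 and 1292 higher (781). Median-of-ratios scaling and quantile normalization set the median change of all genes near 0 in place of -0.27 from E12.5 to P0. From E12.5 to P0 the genes called lower numbered 2283 to 3332 (3087) and those called higher 1439 to 2292 (1641). With the replicate block, 8 genes were called from E12.5 to P0, 3 in the first step (Phgdh at an adjusted p of 0.0538), 8 in the second, 6 in the third and 2 in the fourth (Shmt2 at 0.0564). Replicate differences correlated between stages at -0.375 to 0.107, so the replicate numbers are not taken to pair the libraries.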
